A study of Homo sapiens with 15 samples.

Results

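In A673 Ewing sarcoma cells depleted of EWS/FLI, 308 genes stood on opposite sides of the depleted state under 2 rescue constructs: they were higher with the DAF mutant and lower with wild-type EWS/FLI. They were chosen among 57820 gene identifiers, of which 13178 averaged 50 counts or more over 15 RNA-seq libraries. A gene was taken when its mean log2 CPM (counts per 1000000 counted reads, scaled by TMM with a prior count of 2) was at least 0.4 higher in DAF than in the depleted cells and at least 0.4 lower in the wild-type rescue. Those differences are therefore a property of the choice, and they are given as a description without a test.

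A673 is an established Ewing sarcoma cell line, and 5 conditions with 3 libraries each were profiled. The iLuc condition combined a luciferase shRNA with an empty vector, so that endogenous EWS/FLI was kept. In the other 4 conditions an shRNA depleted EWS/FLI, and it was followed by an empty vector (iEF), wild-type EWS/FLI (WT-EF), a form without the EWS domain (Δ22) or DAF. In DAF, tyrosines of the amino-terminal EWS repeats are replaced by alanine, while a later part of the EWS domain is left intact. The shRNA was introduced on day 1 and the cDNA on day 5, under selection with 2 µg/mL puromycin and, from day 6, with 400 µg/mL hygromycin B as well, until day 16; all conditions come from this 1 cell line, and in the rescues a viral construct supplied the cDNA.

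EWS/FLI joins the low-complexity EWS domain, which recruits transcriptional machinery, to the ETS DNA-binding domain of FLI. It activates many genes from GGAA-repeat microsatellites, and it also represses a large set of genes of mesenchymal, matrix and signalling function. Depletion of the fusion in Ewing sarcoma cells is known to release this repressed set.

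The genes with the widest span in both directions were LAPTM5, a lysosomal membrane protein of blood cells, TNFSF10, the death ligand TRAIL, CEACAM1, a cell adhesion receptor, and APOL3, an interferon-induced apolipoprotein L. Because the members are compared between forms of an ETS factor, the sequence just upstream of the annotated start is shown for the 4 highest-ranked of the 12 widest members that the promoter table of RefSeq (GRCh38.p14) held. Each line gives 250 bases in the direction of the gene, ending at the base before the annotated start, and capitals mark the motif found in that window, GGAAGGAA in LAPTM5, the interferon-stimulated response element (GAAA, any 2 bases, then GAAA, on either strand) in TNFSF10 and CEACAM1, and TGANTCA (an AP-1 site) in LRRC15.
LAPTM5 (chr1:30757775-30758024, minus strand): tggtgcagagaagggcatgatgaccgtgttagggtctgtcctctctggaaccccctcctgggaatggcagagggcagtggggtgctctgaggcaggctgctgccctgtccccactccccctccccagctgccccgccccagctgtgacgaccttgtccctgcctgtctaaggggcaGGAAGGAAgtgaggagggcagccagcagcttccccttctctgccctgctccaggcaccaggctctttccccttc
TNFSF10 (chr3:172523431-172523680, minus strand): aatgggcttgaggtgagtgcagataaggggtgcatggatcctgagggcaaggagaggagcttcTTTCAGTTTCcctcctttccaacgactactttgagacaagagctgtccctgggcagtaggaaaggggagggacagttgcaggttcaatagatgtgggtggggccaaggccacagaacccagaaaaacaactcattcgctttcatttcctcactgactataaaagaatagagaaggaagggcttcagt
CEACAM1 (chr19:42528482-42528731, minus strand): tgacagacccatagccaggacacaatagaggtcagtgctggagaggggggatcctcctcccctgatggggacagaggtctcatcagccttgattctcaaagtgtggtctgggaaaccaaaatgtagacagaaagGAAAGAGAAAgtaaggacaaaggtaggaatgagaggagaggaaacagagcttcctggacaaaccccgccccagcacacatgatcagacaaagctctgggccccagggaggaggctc
LRRC15 (chr3:194369744-194369993, minus strand): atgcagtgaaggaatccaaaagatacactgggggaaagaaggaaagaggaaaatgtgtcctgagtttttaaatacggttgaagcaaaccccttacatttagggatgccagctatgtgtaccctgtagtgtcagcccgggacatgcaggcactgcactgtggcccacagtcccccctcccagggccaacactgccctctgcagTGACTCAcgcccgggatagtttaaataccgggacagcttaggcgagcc

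Among 222 members with a promoter in that table, 15 (6.76%) held the interferon-stimulated response element within these 250 bases, against 2.44% of 10028 promoters of genes averaging 50 counts or more and 3.07% of all 27305 promoters. TGANTCA was found in 24 (10.8%), against 3.92% and 6.6%. GGAAGGAA was found in 11 (4.95%), against 3.02% and 2.99%, and CCGGAAGT, 1 form of ETS site, in 3 (1.35%), against 7.42% and 3.64%. The study defined its high-affinity ETS sites by a different motif, bound by FLI in a wider window around the start, and that class was not counted here. TTCNNNGAA, the STAT site, was found in 16 (7.21%), against 5.69% and 6.78%, and an NF-kB site (GGG, any 2 bases, then TTTCC) in 7 (3.15%), against 1.98% and 1.73%. All motifs were searched on both strands, the GGAA-containing motifs can overlap each other, and these shares are descriptions of letters in a window, without a test. The shares among members that meet the thresholds without replicate set 3, described next, were not measured.

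Before the levels are described, 2 libraries need to be set apart. In replicate set 3, the DAF library and the Δ22 library stood above the other libraries of their condition for many members. In the DAF library of set 3, 75 of 308 members (24.4%) were over 2-fold higher than the mean of the other 2 DAF libraries on the log2 scale, against 2.61% of all genes averaging 50 counts or more. In the Δ22 library of set 3, 84 members were over 2-fold higher than the mean of the other 2 Δ22 libraries, and 62 members were so in both. In the iEF library of set 3 there were 5. The matching shares over all genes were not measured for the Δ22 and iEF libraries, so these counts cannot be called particular to the members. The summed level of 40 interferon-stimulated genes was 5570 CPM in that DAF library against 1950 and 2330 in the other 2, and 9580 CPM in that Δ22 library against 1790 and 2410. In iEF this sum was 2410, 3900 and 2030 CPM in sets 1, 2 and 3, so the second iEF library was also raised. The sum was thus higher in DAF than in iEF in set 3 alone, and lower in sets 1 and 2. The part this played in the choice of members is measured by the same differences over sets 1 and 2 alone, at which 169 of the 308 members still met both thresholds. Of the other 139, 78 missed only the threshold for DAF, 56 only that for WT-EF and 5 both, and 21 members were lower in DAF than in iEF over those 2 sets.

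**Figure D1:**
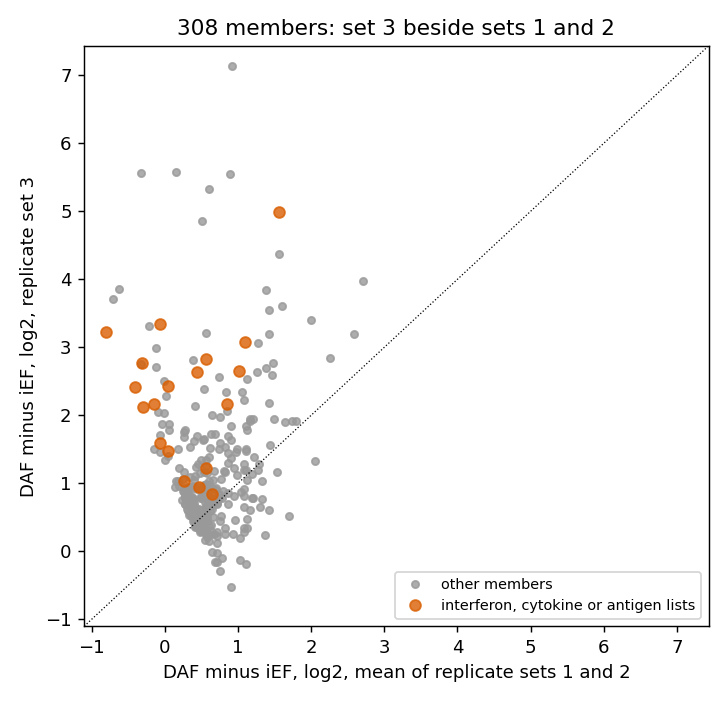
DAF minus iEF for the 308 members, in log2 CPM, as the mean of replicate sets 1 and 2 (x axis) and in set 3 (y axis); each point is 1 gene and the dotted line marks equal values. All 19 members of the interferon, cytokine and antigen presentation lists (orange) lie above the line, as do 219 of the 308 members.

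When each replicate set was held out and the genes were chosen from the other 2, the same pair of signs was read in the held-out set. With set 1 held out, 329 of 433 chosen genes (76.0%) were higher in DAF and lower in WT-EF than in iEF, against 16.5% of the 13178 genes. With set 2 held out it was 221 of 340 (65.0%, against 17.9%), and with set 3 held out 177 of 200 (88.5%, against 21.6%). The iEF library of a set enters both of its differences. Of the 308 members, 114 were chosen in each of the 3 selections on 2 sets and 4 in none.

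Over all libraries the members formed a ladder of levels. Its order of DAF, iEF and WT-EF follows from the choice of members, and the differences of iLuc and Δ22 from iEF share the iEF libraries with that choice. The median member stood 1.81 below iEF on the log2 scale in iLuc and 0.93 below it in WT-EF, and it was 0.51 above it in Δ22 and 0.69 above it in DAF. Condition means ran DAF, Δ22, iEF, WT-EF, iLuc from highest to lowest for 170 members, and for 66 more only the order of DAF and Δ22 was exchanged. iLuc was the lowest condition for 252 members and WT-EF for 56. In 146 members every DAF library lay above every iEF library and every iEF library above every WT-EF library, which holds for 3.01% of genes averaging 50 counts or more. The DAF libraries alone lay above the iEF libraries in 201 members (17.2% of those genes) and the iEF libraries above the WT-EF libraries in 212 (32.4%), and in 212 members both signs were seen in each of the 3 replicate sets (6.85%). In single replicate sets the median of DAF minus iEF was 0.53, 0.65 and 0.93 in sets 1, 2 and 3, and that of WT-EF minus iEF was -0.60, -0.94 and -1.37. Set 3 thus gave the widest difference in both. The counts for DAF, iEF and WT-EF use the libraries that chose the members, so they are a description and are read no further.

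**Figure D2:**
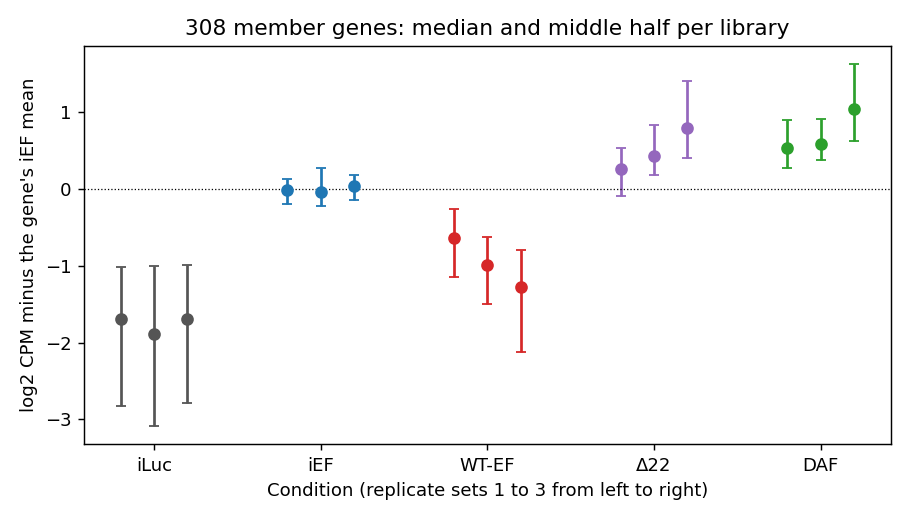
Median over the 308 members of log2 CPM minus each gene's iEF mean, for each of the 15 libraries, with bars that span the middle 50% of the members; replicate sets 1 to 3 run from left to right in each condition. The 3 iLuc libraries lie between -1.89 and -1.69 and the 3 WT-EF libraries between -1.28 and -0.64, below the iEF libraries, and the Δ22 and DAF libraries lie above them.

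In the fit across all 28793 tested genes, 114 members passed an adjusted p of 0.05 as higher in DAF than in iEF, where 5.00% of tested genes did. As lower in WT-EF than in iEF, 200 passed, where 17.0% did, and 78 passed both, where 0.403% did. These counts use the libraries that chose the members and are read no further.

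FLI1, whose 3' part is shared by the endogenous fusion and all 3 rescue proteins, was at 48.0, 47.8 and 52.4 CPM in iLuc and at 12.9, 15.5 and 15.3 CPM in iEF. It was at 16.0, 18.0 and 18.7 CPM in WT-EF, at 24.4, 32.9 and 36.2 CPM in Δ22 and at 22.1, 23.6 and 27.3 CPM in DAF, where reads of the cDNA and of the endogenous transcript cannot be told apart. 9 of 10 markers of Ewing sarcoma cells were tested, and their summed level was highest in iLuc (3180 to 3620 CPM) and lowest in iEF (1240 to 1310 CPM), with 2320 to 2640 in WT-EF, 1320 to 1630 in Δ22 and 1770 to 2140 in DAF. CAV1 and EWSR1 together made up most of this sum in every condition. Of the 9 markers, 7 were higher in DAF than in iEF (5.00% of tested genes). NKX2-2 was not, with means of 0.943 CPM in iEF, 0.925 CPM in DAF and 5.23 CPM in iLuc. Of 8 leukocyte markers 5 were tested, with sums of 0.672 to 1.09 CPM in iLuc, 1.68 to 2.16 in iEF, 0.581 to 1.07 in WT-EF, 1.08 to 3.32 in Δ22 and 1.93 to 4.86 in DAF. CD14 made up most of the sum in the iEF and DAF libraries. PTPRC, which defines leukocytes, was at no more than 1.01 CPM in any library. The part of such cells in the levels of members was not tested.

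LAPTM5 was measured at 0.0611, 0.0561 and 0.0299 CPM in iLuc, which is at most 2 reads a library, and at 1.26, 1.45 and 1.28 CPM in iEF. It was at 0.111, 0.317 and 0.0799 CPM in WT-EF, at 1.79, 2.87 and 2.32 CPM in Δ22 and at 6.36, 11.1 and 12.1 CPM in DAF. No library of any of these conditions overlapped with the iEF libraries, and the difference of means was 2.79 for DAF and -2.75 for WT-EF. The gene lies at chr1:31205316-31230621 on the minus strand (GRCh37).

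CEACAM1 followed the same ladder. It was at 0.245, 0.421 and 0.328 CPM in iLuc, at 7.67, 9.14 and 4.57 CPM in iEF and at 1.41, 0.713 and 0.479 CPM in WT-EF. It reached 25.6, 25.4 and 56.4 CPM in DAF and 7.36, 9.57 and 13.0 CPM in Δ22, so that the Δ22 and iEF libraries overlapped and the DAF libraries stood above both.

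TNFSF10 was scattered within its conditions. In DAF it was at 1.02, 4.80 and 21.2 CPM and in Δ22 at 0.234, 0.548 and 10.5 CPM. In iEF it was at 0.263, 1.82 and 0.611 CPM, so the first DAF library lay within the iEF range, and in WT-EF it was at 0.138, 0.106 and 0 CPM. APOL3 showed the same set 3 elevation, with 25.4, 32.4 and 138 CPM in DAF and 9.96, 16.0 and 109 CPM in Δ22. Its levels were 7.44, 16.1 and 9.57 CPM in iEF and 2.19, 0.740 and 1.49 CPM in WT-EF, and all DAF libraries lay above all iEF libraries.

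IDO1, the tryptophan-degrading enzyme induced by interferon gamma, was the 1 of the 12 widest members that did not meet the thresholds without set 3. It was at 4.18, 1.56 and 26.2 CPM in DAF and at 1.68, 3.14 and 0.494 CPM in iEF, so that DAF minus iEF was 0.15 over sets 1 and 2 and 5.57 in set 3. In WT-EF it was at or under 0.0554 CPM in all 3 libraries.

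LRRC32 and LRRC15 encode leucine-rich repeat surface proteins, the first of which anchors latent TGF-beta. LRRC15 was at 0.214, 0.196 and 0.119 CPM in iLuc, at 11.7, 8.60 and 10.1 CPM in iEF and at 1.30, 1.14 and 0.373 CPM in WT-EF. It was at 15.1, 23.2 and 30.5 CPM in Δ22 and at 33.1, 23.6 and 61.1 CPM in DAF. The 5 groups did not overlap except Δ22 with DAF. LRRC32 was at 9.84, 12.1 and 28.4 CPM in DAF, at 3.73, 4.05 and 4.13 CPM in iEF and at 0.748, 1.19 and 0.266 CPM in WT-EF.

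THBD, the endothelial thrombin receptor thrombomodulin, overlapped between Δ22, at 35.2, 32.9 and 27.0 CPM, and DAF, at 39.6, 21.5 and 22.1 CPM. It was at 10.8, 6.54 and 5.82 CPM in iEF, at 3.18, 2.30 and 0.160 CPM in WT-EF and at no more than 0.224 CPM in iLuc. CDYL2, a chromodomain protein, also overlapped between Δ22 (29.3, 33.1 and 34.8 CPM) and DAF (33.4, 31.4 and 40.3 CPM), with iEF at 12.9, 8.16 and 10.7 CPM and WT-EF at 8.17, 4.33 and 1.12 CPM; the first WT-EF library overlapped with iEF.

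NPNT and ABI3BP are matrix proteins. ABI3BP was at 13.6, 10.3 and 11.1 CPM in iEF and at 25, 26.4 and 64.5 CPM in DAF, while its Δ22 libraries, at 10.1, 11.2 and 17.3 CPM, overlapped with iEF. NPNT was at 19.6, 18.4 and 43.6 CPM in DAF and 5.70, 8.60 and 4.71 CPM in iEF. SAMD9L, an antiviral protein, was at 143, 119 and 273 CPM in DAF, at 50.9, 81.9 and 43.5 CPM in iEF and at 12.6, 6.82 and 5.96 CPM in WT-EF.

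**Figure D3:**
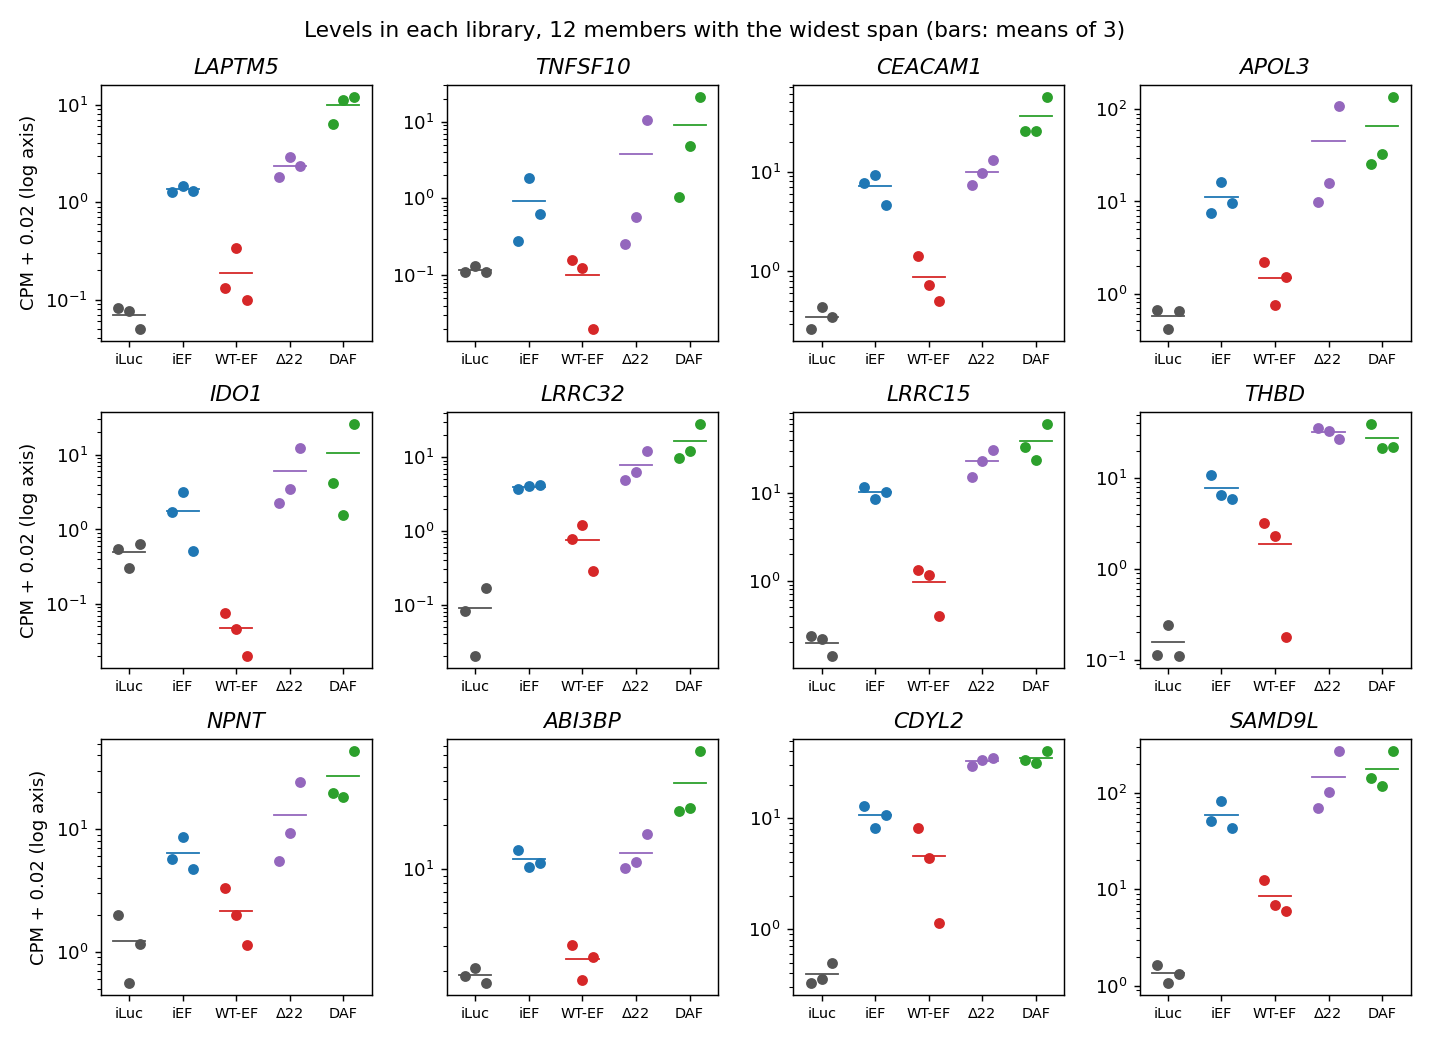
CPM plus 0.02, on a log axis, in each of the 15 libraries for the 12 members with the widest span (the smaller of DAF minus iEF and iEF minus WT-EF), with bars at the mean of 3 libraries. WT-EF lies below iEF and DAF above it in each mean, and in TNFSF10, APOL3 and IDO1 the Δ22 and DAF libraries of set 3 lie far above the others.

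The 2 differences that chose the members used no iLuc or Δ22 library, although these libraries count toward the minimum of 50 counts. The comparison of iLuc with Δ22 asked whether genes on this ladder also separated cells with the endogenous fusion from cells with a form that lacks the EWS domain. In the quasi-likelihood test of edgeR with Benjamini-Hochberg adjustment, 290 of 308 members (94.2%) were lower in iLuc than in Δ22 and 2 were higher, where 23.2% and 20.7% of the 28793 tested genes were. Among genes averaging 50 counts or more, the shares were 35.5% lower and 32.3% higher. The median member had a log2 fold change of -2.49, with the middle 50% between -3.89 and -1.35, against a median of -0.01 over genes averaging 50 counts or more. In 286 members every Δ22 library lay above every iLuc library, where 37.5% of genes averaging 50 counts or more did so. With the minimum of 50 counts taken over the 9 iEF, WT-EF and DAF libraries alone, an alternative chosen after seeing the data, 314 genes met the rule (306 of them members), of which 296 (94.3%) were lower in iLuc, against 36.1% of the genes at that minimum. Without set 3, 286 members were lower in iLuc, and without the third Δ22 library alone 278 were. In such bulk samples fewer cells of a type and less RNA per cell cannot be told apart.

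The members were next set beside genes that WT-EF lowered as they did but that DAF left within 0.4 of iEF, of which there were 2288. Of these, 1942 (84.9%) were lower in iLuc than in Δ22, with a median of -1.03. A log2 fold change below -1 was seen in 265 members (86.0%) and in 1176 of those genes (51.4%). Of 128 genes that met the mirrored rule, lower in DAF and higher in WT-EF, 117 were higher in iLuc, with a median of 1.66. No test was made between these sets, and WT-EF minus iEF was also wider in the members (median -0.93 against -0.77).

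**Figure D4:**
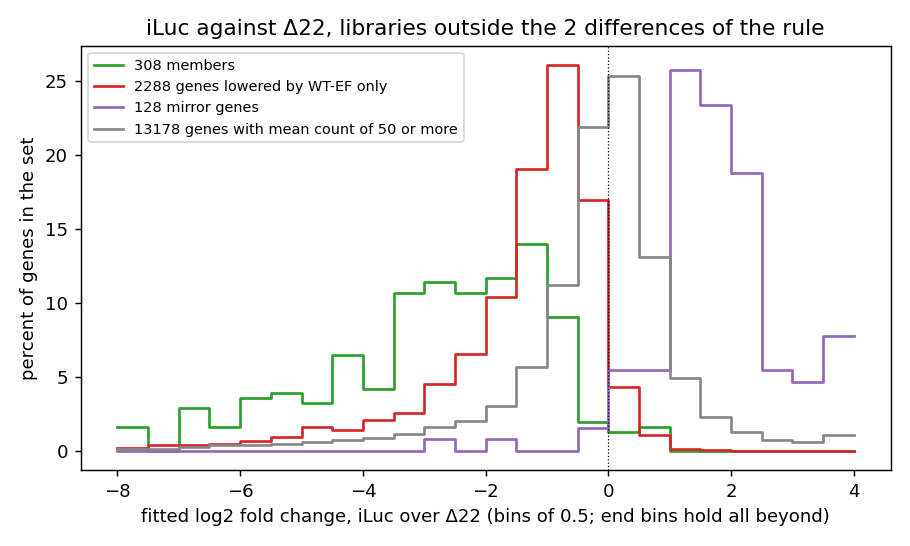
Percent of genes (y axis) in bins of 0.5 of the fitted log2 fold change of iLuc over Δ22 (x axis), for the 308 members, the 2288 genes lowered by WT-EF alone, the 128 mirror genes and the 13178 genes averaging 50 counts or more. The members lie at more negative values, with a median of -2.49, than the genes lowered by WT-EF alone, with a median of -1.03.

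The 5 members with the lowest fitted log2 fold change of iLuc over Δ22 were TNS3, CD93, THBD, ESM1 and ITGB3, where the place of TNS3 and CD93 depends on how the fit treats counts at or near 0. TNS3, a focal adhesion tensin, had no read in any iLuc library and was at 1.90, 3.94 and 6.54 CPM in Δ22. Set against a floor of 3 counts per iLuc library it was at least 46.7-fold higher in Δ22. CD93, an endothelial and myeloid surface lectin, had 2 reads in all in iLuc and 675 in Δ22, a ratio of 342 with an exact 95% interval of 94.3 to 2830, which covers counting error only. THBD fell by 7.87 in iLuc against Δ22 (SE 0.60, adjusted p = 1.02e-07). ESM1, the secreted proteoglycan endocan, was at 2.38, 2.22 and 1.19 CPM in iLuc and at 408, 295 and 611 CPM in Δ22, with a log2 fold change of -7.82 (SE 0.75, adjusted p = 8.87e-07). ITGB3, the beta subunit of the vitronectin receptor, was at or under 0.122 CPM in iLuc and at 18.5, 18.5 and 27.0 CPM in Δ22, with a log2 fold change of -7.71 (SE 0.57).

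The 2 members that were higher in iLuc than in Δ22 were TLL1, a matrix metalloprotease related to BMP1, and PLCXD3, a phospholipase-like protein. TLL1 was at 30.9, 28.7 and 53.6 CPM in iLuc and at 12, 20.5 and 23.8 CPM in Δ22, with a log2 fold change of 1.00 (SE 0.29, adjusted p = 0.0113). It was at 6.54, 12.1 and 6.25 CPM in iEF and 37.7, 34.1 and 66.5 CPM in DAF, so DAF and iLuc overlapped. PLCXD3 had a log2 fold change of 0.57 (SE 0.18, adjusted p = 0.0212). The number of such members was 0 without set 1, the third iLuc or the first Δ22 library, 1 without the first iLuc library, and 4 without set 3 or the second iLuc library. Of 16 members that passed in neither direction, CDH11, a mesenchymal cadherin, was at 255, 249 and 275 CPM in iLuc and 248, 288 and 310 CPM in Δ22, a log2 fold change of -0.11 (SE 0.15). MATK, INSIG1, KLF2 and SGK3 also had fitted values between -0.15 and 0.06. CXCL10 had a fold change of -3.35 but an SE of 1.43 (adjusted p = 0.0727).

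Compared with iEF, whose libraries also took part in the choice, 265 members were lower in iLuc and 5 higher (22.1% and 19.5% of tested genes). In Δ22 against the same iEF libraries 23 members were higher, where 0.472% of tested genes were. They included THBD, CD93, IGFBP5, PTGS2, IL1B and KDR. DAF against Δ22 shares the DAF libraries with the choice, and there 12 members were higher in DAF, where 0.948% of tested genes were. These were LAPTM5, CEACAM1, ABI3BP, GMFG, ELN, DAB2, LPL, NHERF2, TLL1, SLC7A8, DCHS1 and CDH11, with log2 fold changes from 0.64 in CDH11 to 2.44 in GMFG.

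By role, 56 members belonged to 1 or more of the gene lists and 252 to none. Each list's count of members stands beside 308 members among all 28793 tested genes, 13178 of which averaged 50 counts or more. Shares over all tested genes are given for the lists, although most listed genes averaged 50 counts or more. At that minimum 35.5% of genes were lower and 32.3% higher in iLuc than in Δ22. There, 29.3% were lower in WT-EF than in iEF and 8.17% higher in DAF than in iEF. Interferon-stimulated genes come first. Interferons induce such genes in most cell types as a defence against viruses. 7 of 40 tested genes of the interferon list were members, namely SAMD9L, GBP2, SAMD9, GBP1, TRIM22, BST2 and IFIT2. Of the 40, 39 were lower in iLuc than in Δ22 and 29 lower in WT-EF than in iEF (23.2% and 17.0% of tested genes), with medians of -3.08 and -1.60 against 0.03 and -0.01 over all tested genes. In DAF against iEF 2 were higher, a share no larger than the 5.00% of all tested genes, and the median was -0.19, against 0.00 over all tested genes. In each of the 7 members the DAF and Δ22 libraries of set 3 were over 2-fold above the mean of the other 2 on the log2 scale, and 3 of the 7 met the thresholds over sets 1 and 2.

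The guanylate-binding proteins, interferon-induced GTPases, had 4 members, GBP1, GBP2, GBP4 and GBP5. GBP2 was at 50.9, 52.4 and 167 CPM in DAF, at 27.5, 52.8 and 26.9 CPM in iEF and at 15.2, 11.7 and 10.7 CPM in WT-EF. The second iEF library reached the DAF libraries of sets 1 and 2. GBP3, no member, was at a mean of 55.5 CPM in iEF and 70.3 CPM in DAF, a difference of 0.26, and at 22.3 CPM in WT-EF.

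The chemokines CXCL9, CXCL10 and CXCL11, which attract T cells, were all members, and each was highest in DAF in the library of set 3. CXCL10 was at 2.74, 3.40 and 93.4 CPM in DAF and at 1.67, 3.34 and 78.8 CPM in Δ22, against 1.5, 9.71 and 1.92 CPM in iEF. CXCL11 was at 1.48, 1.90 and 24.3 CPM in DAF and CXCL9 at 0.738, 0.765 and 20.4 CPM. Among genes of the apolipoprotein L family, APOL1 and APOL2 were members beside APOL3. APOL2 was at 83.8, 87.9 and 181 CPM in DAF and 57.4, 73.7 and 59.0 CPM in iEF. APOL4 went the other way in WT-EF, with means of 3.84 CPM against 0.773 CPM in iEF.

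In the antigen presentation list 4 of 24 tested genes were members, HLA-DRA, ERAP2, HLA-E and TAPBP, and 20 of the 24 were lower in iLuc than in Δ22 and 1 higher (23.2% and 20.7% of tested genes), with a median of -2.08 against 0.03 over all tested genes. HLA-E, which presents peptides to natural killer cells, was at 227, 288 and 432 CPM in DAF, at 167, 177 and 184 CPM in iEF and at 143, 108 and 116 CPM in WT-EF, with no overlap. The class I genes HLA-B and HLA-C were not members, with DAF minus iEF of -0.11 and 0.11, and with WT-EF minus iEF of -2.64 and -1.90. HLA-DRA was at or under 0.0277 CPM in every WT-EF library and at 1.47, 2.73 and 0.640 CPM in iEF. In DAF it was at 1.72, 2.14 and 7.01 CPM, so the first and second DAF libraries lay within the iEF range. Over sets 1 and 2 alone, 2 of the 4 members of this list met both thresholds. In DAF against iEF 3 of the 24 were higher and 0 lower (5.00% and 6.19% of tested genes). STING1, the sensor adaptor for cytosolic DNA signals, varied little within conditions, at 73.1, 72.5 and 85.7 CPM in DAF, 49.0, 49.6 and 54.0 CPM in iEF and 34.3, 26.0 and 23.8 CPM in WT-EF.

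Inflammatory cytokines and NF-kB targets formed the next group, with 8 members among 32 tested genes of their list: TNFSF10, CCL2, ICAM1, PTGS2, IL1B, IL6, IL32 and TNFRSF9. Of the 32, 29 were lower in iLuc than in Δ22 and 2 higher (23.2% and 20.7% of tested genes), with a median of -4.54 against 0.03. In WT-EF against iEF 14 were lower and 1 higher (17.0% and 12.9% of tested genes). In DAF against iEF 2 were higher and 1 lower (5.00% and 6.19% of tested genes), with a median of 0.24 against 0.0 over all tested genes. CCL2, the monocyte chemokine, was at 56.7, 75.6 and 584 CPM in DAF and at 26.1, 97.3 and 894 CPM in Δ22, against 20.8, 93.8 and 81.9 CPM in iEF and 8.31, 5.36 and 10.9 CPM in WT-EF. The DAF and iEF libraries overlapped. PTGS2, the inducible cyclooxygenase, was at 101 to 175 CPM in DAF, 62.4 to 101 CPM in iEF and 23.1 to 40.8 CPM in WT-EF, and at 148 to 450 CPM in Δ22. All 8 members were over 2-fold higher in the Δ22 library of set 3 than the mean of the other 2 Δ22 libraries on the log2 scale. In the DAF library of set 3 the same held for 7 of the 8. Over sets 1 and 2 alone, 3 of the 8 met both thresholds.

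Of 5 tested endothelial markers only KDR, the VEGF receptor, was a member. Some other members are also known from vessels, and they were picked after their values were seen. Besides THBD, CD93 and ESM1 these were TIE1, an orphan receptor tyrosine kinase, PODXL, a sialomucin, and ECSCR. PODXL was at 604, 471 and 608 CPM in DAF, 505, 468 and 489 CPM in Δ22 and 281, 161 and 295 CPM in iEF, with 157, 90.4 and 24.8 CPM in WT-EF and 33.3, 29.7 and 35.2 CPM in iLuc. No iEF library overlapped with another condition. KDR was at 26.2, 23.1 and 20.7 CPM in DAF and 11.7, 13.2 and 9.42 CPM in iEF, while WT-EF (12.6, 8.53 and 3.35 CPM) overlapped with iEF. TIE1 was at 3.20, 4.12 and 8.85 CPM in DAF and 0.803, 0.476 and 0.0799 CPM in WT-EF. The defining endothelial genes CDH5, VWF and TEK were at means of at most 0.411 CPM in every condition, and CLDN5 at most 1.36 CPM.

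Matrix genes were represented by 6 of 45 tested glycoproteins and proteoglycans (ELN, THBS2, EFEMP1, BGN, SPARC and FBLN5) and 3 of 26 collagens, all 3 of them type V chains. In those lists DAF against iEF had 2 higher and 18 lower for the glycoproteins and 3 higher and 8 lower for the collagens (5.00% and 6.19% of tested genes were higher and lower), so that most of the lists lay outside the members. ELN, elastin, was at 75.2, 70.1 and 108 CPM in DAF, at 42.7, 23.5 and 48.9 CPM in iEF and at 13.5, 13.3 and 14.6 CPM in WT-EF, with no overlap. In iLuc it was at 23.5, 19.8 and 36.5 CPM, above WT-EF. COL5A2 was at 753, 812 and 1110 CPM in DAF, 498, 626 and 629 CPM in iEF and 333, 391 and 353 CPM in WT-EF. SPARC, a collagen-binding secreted protein, was at 969, 1300 and 1710 CPM in DAF, 700, 1000 and 1090 CPM in iEF and 411, 511 and 372 CPM in WT-EF; its first DAF library lay within the iEF range. THBS2 was a member and THBS1 was not, with means of 139 CPM in iEF, 70.6 CPM in DAF and 3.83 CPM in WT-EF.

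IGFBP5, an insulin-like growth factor binding protein, drew the most reads of the protein-coding members, with 2170, 1640 and 1290 CPM in DAF, 1620, 1930 and 1310 CPM in Δ22 and 968, 977 and 553 CPM in iEF. It was at 164, 176 and 130 CPM in WT-EF and 31.1, 42.1 and 28.3 CPM in iLuc, and its log2 fold change of iLuc over Δ22 was -5.58 (SE 0.16, adjusted p = 1.17e-10 by edgeR's quasi-likelihood test). It is 1 of 2 members, with MMP3, from 14 genes known from the literature as repressed by EWS/FLI. Of these 14, 1 was higher and 2 were lower in DAF than in iEF (5.00% and 6.19% of tested genes). Their median log2 fold change was -0.11, and 12 of them were lower in WT-EF than in iEF (17.0% of tested genes). None of 22 genes known as activated by EWS/FLI was a member, 13 of which were higher in DAF than in iEF and 20 higher in WT-EF (5.00% and 12.9% of tested genes).

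Of 37 tested actin and contractile genes, 4 were members, TNS3, SYNPO, ACTA2 and LPP, and of 28 YAP-TEAD targets only ANKRD1, a cardiac ankyrin repeat protein. Among all 28793 tested genes 308 were members. In DAF against iEF each of these 2 lists had 2 genes higher and 5 lower (5.00% and 6.19% of tested genes). ANKRD1 was at 350, 384 and 581 CPM in DAF and 229, 192 and 257 CPM in iEF, and at 63.6, 62.0 and 3.78 CPM in WT-EF, where the library of set 3 lay at the iLuc level of 3.45 to 3.82 CPM. CDKN1A, the cell cycle inhibitor p21, was at 124, 127 and 216 CPM in DAF, 89.9, 77.6 and 109 CPM in iEF and 54.1, 55.8 and 57.0 CPM in WT-EF, with 14.3, 15.8 and 18.0 CPM in iLuc. No member came from 42 cell cycle and replication genes, 39 of which were lower in DAF than in iEF (6.19% of tested genes). ERK-ETS response and AP-1 genes gave 2 of 30 and 3 of 24. In DAF against iEF the ERK-ETS list had 1 gene higher and 7 lower, and the AP-1 list had 0 and 0. Of the remaining lists, growth factors and receptor kinases gave 5 of 59 (IGFBP5, ANGPTL4, KITLG, KDR and ANGPT1), matrix proteases and their inhibitors 4 of 42 (MMP19, MMP3, SERPINB8 and SERPINB2), TGF-beta signalling 3 of 41 (NOG, BMPR2 and TGFB3) and integrins and laminins 2 of 31, with ITGB3 among them. In DAF against iEF growth factors had 9 genes higher and 13 lower, and matrix proteases 4 and 9. TGF-beta signalling had 6 and 5, and integrins and laminins 1 and 7. Axon guidance, Wnt and Notch, mesenchymal transcription factors and ion channels gave 1 each, of 56, 50, 47 and 57, and none of 6 tested epithelial markers was a member. Axon guidance had 10 genes higher and 7 lower in DAF than in iEF, and Wnt and Notch 6 and 11. Mesenchymal transcription factors had 8 and 15, and ion channels 18 and 9.

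MALAT1 drew the most reads of all members and, with NEAT1, is a long noncoding RNA that stays in the nucleus. MALAT1 was at 5290, 3550 and 3720 CPM in DAF, 4280, 3810 and 3180 CPM in Δ22, 2140, 2930 and 2000 CPM in iEF, 2030, 1390 and 1110 CPM in WT-EF and 1130, 858 and 950 CPM in iLuc. The DAF and Δ22 libraries lay above all iEF libraries. NEAT1 was at 585, 227 and 237 CPM in DAF, and these overlapped with iEF at 205, 264 and 137 CPM. In all, 279 members were annotated as protein-coding and 17 as long noncoding RNA.

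Members just inside the DAF threshold were BHLHE41, MAFF and CYSTM1, with DAF minus iEF between 0.401 and 0.402, and just outside lay ARHGAP24, KRT18 and PCDH1, between 0.398 and 0.4. At the WT-EF threshold ITSN2, NUMB and BCL6 lay inside, between -0.413 and -0.403, and SASH1, PRAF2 and WDR47 outside, between -0.396 and -0.388. The non-members whose 5 condition means were most like the mean member profile were IFNAR1 and KRT18 (both r = 0.9996 over 5 conditions) and PNPLA6 (r = 0.9993), whose differences were smaller; IFNAR1, a subunit of the type I interferon receptor, was at means of 87.4 CPM in DAF, 70.0 CPM in iEF and 53.3 CPM in WT-EF.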

How the data were processed

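RNA-seq libraries of A673 cells were analysed, 3 for each of 5 conditions. Paired-end alignment by the authors used STAR (2.5.1b in the submitters' processing notes) against hg19, and htseq-count gave the deposited raw counts per gene. Of the other tables the authors deposited, ComBat-adjusted counts gave 1 alternative, while a table of their own fold changes and p-values was not used. 3 columns of other samples were not used.

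Total counts ran from 28659475 to 41859880 per library. Genes averaging at least 1 count (28793) were kept. All 308 members passed, since the rule asks for 50, which a gene can reach through its high condition. One quasi-likelihood model (R 4.3.3, edgeR 4.0.16, TMM) covered all 15 libraries, its terms being condition and, as a block, the replicate number, as the study adjusted each replicate set for batch. Deviations from condition means had a median correlation of 0.185 over 30 same-numbered pairs and -0.0842 over 60 others, so the pairing rests on the study's replicate sets and these data. P-values weigh each difference against the spread between these libraries of 1 cell line, part of which may be technical. Adjustment was by Benjamini-Hochberg over all tested genes, at 0.05. The method was tested on simulated data for iLuc against Δ22 only. That simulation gave all genes the same level of spread, so it does not cover genes with wide scatter between libraries.

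The members and gene lists were chosen with earlier results of these data known. Named genes were the 12 members with the largest smaller-of-2 difference, up to 5 in each direction of iLuc against Δ22, list members, those nearest the thresholds, the 5 with the highest mean CPM and FLI1; others were named after their values were seen. Reads of related genes (GBP, IFITM, HLA, SERPINB) and, as the strand setting of the counting was not given in the sources used here, of antisense genes are uncertain. Coordinates are from GENCODE on GRCh37. Symbols matched 296 members. Alternatives were other scalings, filters and prior counts, other thresholds, DESeq2 1.42.0, no block, only the libraries compared, and leaving out each library or set.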

Additional observations from a re-analysis of the deposited data

How the results depend on the processing

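The count of genes lower in iLuc than in Δ22 stayed between 278 and 296 over 16 alternatives. The 296 are of the 314 genes chosen with the minimum taken over 9 libraries. Among the 308 members the highest count was 292, with the DESeq2 Wald test. The list itself grew from 308 to 474 with a minimum of 10 counts and to 486 with a threshold of 0.3, and it held 200 to 433 genes when a replicate set was left out, with 200 without set 3. Scaling by library totals moved every WT-EF minus iEF difference by 0.23, and every iLuc minus Δ22 difference by 0.18, and left 277 members, with 75.3% of the 308 kept. The ComBat-adjusted counts left 229 members, with 74.4% of the 308 kept. With the median of 3 libraries in place of the mean there were 231, with 66.2% of the 308 kept. With no replicate block, members higher in iLuc numbered 1 and members called in both DAF and WT-EF 46. Members called higher in DAF numbered 228 with no filter on low counts and 215 in the fit of the libraries compared, and members called in both 194 and 146. Leaving out single libraries or sets gave 39 to 154 called in DAF (39 without the third DAF library, 40 without set 2, 60 without set 1, 58 and 71 without the first and the third iEF library), 114 to 242 in WT-EF (114 without set 2), 15 to 125 in both (15 and 43 without sets 2 and 1, 31, 44 and 47 without single iEF libraries, 30 without the third DAF library, 125 without the first WT-EF library) and 0 to 4 higher in iLuc. The held-out share was 74.7% over the 3 sets and 88.5% for set 3 alone. The cause of these changes was not tested.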

Other observations

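Some members lay within 100 kb of each other on the chromosomes, and how often other genes do so was not measured. The run with GBP1, GBP2, GBP4 and GBP5 covers chr1:89517565-89738543, that with CXCL9, CXCL10 and CXCL11 covers chr4:76922428-76962568, and that with APOL3, APOL2 and APOL1 covers chr22:36536377-36663576. THBD and CD93 are neighbours at chr20:23026270-23066961, SAMD9 and SAMD9L at chr7:92728826-92777698, and ECSCR and STING1 at chr5:138784245-138862520. NEAT1 and MALAT1 share a run with CDC42EP2 and FRMD8 at chr11:65082337-65275544. Coordinates are GRCh37.

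RN7SL5P, a pseudogene of the signal recognition particle RNA, met the rule through 1 library. It was at 3.69, 3.43 and 73.8 CPM in DAF and between 4.59 and 7.46 CPM in iEF.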
